A study of Mus musculus with 20 samples.

Results

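The genes described here are the sensors, transcription factors and degradation factors of the unfolded protein response, and their levels come from counts of reads in 3′ UTRs. The 10 genes were chosen by symbol, and all 10 were found, among 16021 genes that could be given a symbol in a table of 20586 UTR rows. They are Ern1, Eif2ak3, Atf6 and Atf6b (sensors), Xbp1, Atf4 and Ddit3 (transcription factors), and Edem1, Sel1l and Syvn1 (degradation). The study asked which mRNAs are bound, in activated CD8 T cells, by CPEB4, a protein that attaches to cytoplasmic polyadenylation elements and so acts on poly(A) tails and translation. RNA was sequenced from CPEB4 immunoprecipitates (IP) and from the input of the same kind of lysate, in wild-type (WT) cells and in cells of Cpeb4 knockout (KO) mice, all on the C57BL/6 strain. The CD8 T cells were taken from spleen and lymph nodes with beads and stimulated over 48 h by antibodies to CD3 and CD28 (1 μg/ml each) together with IL-2 at 20 ng/ml. The groups were WT IP, KO IP, KO input and WT input. Input RNA was selected for poly(A) and amplified for 12 PCR cycles, and IP RNA was not selected and had 7 cycles. The sources used here give neither the knockout allele nor the age, sex and number of mice behind a library. The p-values therefore measure the spread between these libraries alone, and that spread may be technical.

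When unfolded proteins collect in the endoplasmic reticulum (ER), sensors in its membrane change the cell's output of mRNA and protein. IRE1α, encoded by Ern1, cuts an intron out of Xbp1 mRNA, which then yields an active transcription factor for folding, secretion and degradation genes. PERK, encoded by Eif2ak3, phosphorylates eIF2α, which lowers translation in general but lets Atf4 mRNA be translated, and ATF4 in turn activates genes that include Ddit3 (CHOP). ATF6 and its relative ATF6B are cut in the Golgi to release transcription factors, and terminally misfolded proteins are handed by EDEM1 to the SEL1L and HRD1 (Syvn1) complex, which passes them to the cytosol for degradation. In T cells, activation and effector protein synthesis load this secretory machinery.

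Values were taken from 9 of the 20 runs, which belong to 6 of the 12 libraries, because row names match counts only in these. In these 9 runs, 25 of 49 neighbouring rows that share a UTR start and hold over 20 counts had identical counts, against 0 of 60 in the other 11 runs, which are not used here. Runs are called by their labels, although counts contradict some of them. The run labelled WT IP batch 2 differed from KO input D1 and WT input D1 by a chi-square per degree of freedom of only 1.09 and 1.05, where sampling noise alone gives 1, and from its own batch 3 run by 58.7. Between KO IP batch 3 and WT input RIP8 batch 2 this ratio was 3.09. A single UTR row, in Lars2, held 34.8 to 50.1% of the counts in 5 runs of 364113 to 486758 counts, and 1.16 to 5.40% in 4 runs of 2605101 to 4182830 counts. These are called Lars2-rich and Lars2-poor runs, and their Lars2 share and their depth cannot be told apart. The Lars2-rich runs are WT IP batch 2, both KO inputs, WT input D1 and WT input RIP8 batch 1, and the Lars2-poor runs are WT IP batch 3, both KO IP runs and WT input RIP8 batch 2. Levels are CPM, the counts of a row scaled to a run total of 1000000 without the Lars2 row. There, 1 count is worth 3.15 to 5.20 CPM in the Lars2-rich runs and 0.245 to 0.406 CPM in the Lars2-poor runs.

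The UTR of Cpeb4, the targeted gene, had 123 and 12.0 CPM in the WT IP runs (batches 2 and 3) and 16.2 and 47.1 CPM in the KO IP runs. It had 110.0 and 126 CPM in KO inputs D1 and RIP8, against 125, 195 and 34.3 CPM in the WT input runs (D1, RIP8 batch 1 and RIP8 batch 2). The deleted part of the gene is not given, so a level in the UTR does not check the labels. Cd8a and 7 other CD8 T cell markers summed to 2373 to 2962 CPM in the Lars2-rich and 4258 to 9587 CPM in the Lars2-poor runs. By itself Cd8a overlapped, at 1016 to 1439.5 CPM in the Lars2-rich and 719.7 to 1234.5 CPM in the Lars2-poor runs, and Cd3e overlapped too. Gzmb, with most counts of these markers, had 232 to 545 CPM in the Lars2-rich and 857 to 4391 CPM in the Lars2-poor runs. A list of CD4 T cell markers, mostly Ikzf2, summed to 1018 to 1435 CPM in the Lars2-rich and 383 to 720.1 CPM in the Lars2-poor runs. Il4 was at 0 in every run and Cd4 at no more than 11.5 CPM. Other markers of that list were present in every run. Foxp3 had 49.98 to 66.6 CPM in the Lars2-rich and 29.2 to 48.1 CPM in the Lars2-poor runs. Zbtb7b had 28.0 to 109 CPM in the Lars2-rich and 25.7 to 73.0 CPM in the Lars2-poor runs. The myeloid list, mostly Ly6c2, summed to 47.3 to 118 CPM in the Lars2-rich and 382 to 812 CPM in the Lars2-poor runs, with 6 of 17 markers, among them Adgre1 and S100a8, at 0 in all 9 runs. The B cell list summed to 63.0 to 138 CPM in the Lars2-rich and 84.4 to 156 CPM in the Lars2-poor runs, with Pax5 at 0. H2-Ab1 had 5.20 to 31.5 CPM in the Lars2-rich and 29.8 to 73.4 CPM in the Lars2-poor runs. Cd79b had 0 to 5.20 CPM in the Lars2-rich and 14.6 to 33.4 CPM in the Lars2-poor runs, and Cr2 had 6.30 to 59.2 and 0.812 to 7.56 CPM. The NK cell list, mostly Klrk1 and Eomes, summed to 224 to 505 CPM in the Lars2-rich and 145 to 408 CPM in the Lars2-poor runs. In that list Ncr1 had no more than 0.521 CPM. The part of these cells in the levels below was not tested, and in bulk RNA fewer cells of a type and less RNA per cell cannot be told apart.

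Ern1 had the widest range of the 9 genes counted in every run. Its row, ENSMUST00000001059, starts at 106394650 on chromosome 11 (GRCm38), 2970 bases outside the RefSeq gene, and was placed by the alphabetical order of the rows. The run labelled WT IP batch 2 had 242 CPM (49 counts) and WT IP batch 3 had 3.76 CPM (15 counts), against 18.8 and 19.5 CPM in KO IP batches 2 and 3. KO inputs D1 and RIP8 had 175 and 112 CPM, against 193, 101 and 18.8 CPM in WT input D1, RIP8 batch 1 and RIP8 batch 2. Every Lars2-rich run was thus above every Lars2-poor run, with a mean 10.8 times as high. The runs labelled as WT IP were 64.3-fold apart, and the exact 95% Poisson interval of the lower one reached from 2.10 to 6.20 CPM, below every other run.

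Eif2ak3, which encodes PERK, did not separate the kinds of run. Its row (ENSMUST00000034093, chromosome 6, UTR start 70904289) had 39.5 and 20.3 CPM in WT IP batches 2 and 3 and 30.5 and 38.5 CPM in KO IP batches 2 and 3. It had 74.97 and 66.6 CPM in KO inputs D1 and RIP8, against 72.9, 25.2 and 36.2 CPM in WT input D1, RIP8 batch 1 and RIP8 batch 2. The runs overlapped, since WT input RIP8 batch 1, a Lars2-rich run with 8 counts, lay among the Lars2-poor runs.

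The related sensors Atf6 and Atf6b differed in opposite directions between the means of the kinds of run. Atf6 (ENSMUST00000027974, chromosome 1, UTR start 170704674) had 88.8 and 8.52 CPM in WT IP batches 2 and 3 and 25.3 and 44.6 CPM in KO IP batches 2 and 3. It had 85.0 and 56.0 CPM in KO inputs D1 and RIP8, against 67.7, 66.2 and 30.1 CPM in WT input D1, RIP8 batch 1 and RIP8 batch 2. All 5 Lars2-rich runs were above all 4 Lars2-poor runs, with a mean 2.68 times as high. Atf6b (ENSMUST00000015605, chromosome 17, UTR start 34654698) had only 9 counts in the Lars2-rich runs together, against 310 in the Lars2-poor runs. Its levels were 4.94 and 10.8 CPM in WT IP batches 2 and 3 and 20.1 and 30.03 CPM in KO IP batches 2 and 3. KO input D1 had 0 counts, for which the level of 3 counts, 15.0 CPM, is taken as the limit, and KO input RIP8 had 3.503 CPM, against 20.8, 9.45 and 28.4 CPM in WT input D1, RIP8 batch 1 and RIP8 batch 2. The mean was 0.347 times as high in the Lars2-rich runs, but WT input D1, with 4 counts, overlapped the Lars2-poor runs. A further row with the same start held identical counts in the 9 runs and adds nothing.

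Xbp1 was among the better counted genes, with 3244 counts. Its row (ENSMUST00000063084, chromosome 11, UTR start 5524905) lies outside the intron that IRE1α removes, so spliced and unspliced mRNA are counted alike. Levels were 168 and 115 CPM in WT IP batches 2 and 3 and 168 and 288 CPM in KO IP batches 2 and 3. KO inputs D1 and RIP8 had 120.0 and 199.7 CPM, against 151, 202 and 299.6 CPM in WT input D1, RIP8 batch 1 and RIP8 batch 2. The kinds of run overlapped, and the lowest and the highest values were both in Lars2-poor runs, WT IP batch 3 and WT input RIP8 batch 2. Xbp1 is also a plasma cell factor. The plasma cell list summed to 49.98 to 133 CPM in the Lars2-rich and 42.8 to 74.9 CPM in the Lars2-poor runs, mostly Prdm1, with Tnfrsf17 at 0 in all 9 runs and Jchain at no more than 0.734 CPM.

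Atf4 and Ddit3, the effectors downstream of PERK, were both lower in every Lars2-rich run than in any Lars2-poor run. Atf4 (ENSMUST00000109605, chromosome 15, UTR start 80257461) had 34.5 and 100.2 CPM in WT IP batches 2 and 3 and 80.8 and 58.0 CPM in KO IP batches 2 and 3. In KO inputs D1 and RIP8 it had 10.0 and 28.0 CPM, against 41.6, 31.5 and 62.2 CPM in WT input D1, RIP8 batch 1 and RIP8 batch 2. The mean was 0.387 times as high in the Lars2-rich runs, where 2 to 10 counts stand behind each value. Ddit3 (ENSMUST00000026475, chromosome 10, UTR start 127296092) had 49.4 and 133 CPM in WT IP batches 2 and 3 and 123 and 74.3 CPM in KO IP batches 2 and 3. It had 40.0 and 21.0 CPM in KO inputs D1 and RIP8, against 26.0, 28.4 and 69.8 CPM in WT input D1, RIP8 batch 1 and RIP8 batch 2. The mean of the Lars2-rich runs was 0.329 times that of the Lars2-poor runs, with 5 to 10 counts in each Lars2-rich run. The RefSeq gene Mars1 overlaps the end of Ddit3, and since the strand setting is not given, reads of both genes cannot be told apart.

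Edem1, which takes misfolded glycoproteins out of the folding cycle, was the best counted of the 10 genes, with 5434 counts. Its row (ENSMUST00000089162, chromosome 6, UTR start 108855557) had 1446 and 276 CPM in WT IP batches 2 and 3 and 263 and 328 CPM in KO IP batches 2 and 3. KO inputs D1 and RIP8 had 1295 and 963 CPM, against 1400.1, 829 and 283 CPM in WT input D1, RIP8 batch 1 and RIP8 batch 2. All Lars2-rich runs lay above all Lars2-poor runs, with a mean 4.13 times as high, and the 4 Lars2-poor runs were within 1.25-fold of each other.

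Sel1l, the scaffold of the retrotranslocation complex, followed another pattern. Its row (ENSMUST00000021347, chromosome 12, UTR start 91806043) had 424 and 378 CPM in WT IP batches 2 and 3 and 348 and 166 CPM in KO IP batches 2 and 3. It had 335 and 291 CPM in KO inputs D1 and RIP8, against 369.5, 343 and 171 CPM in WT input D1, RIP8 batch 1 and RIP8 batch 2. The kinds of run overlapped, and the low values were those of KO IP batch 3 and WT input RIP8 batch 2, which were within sampling error of each other. Their exact 95% Poisson intervals were 150.3 to 183 and 159 to 184 CPM.

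Syvn1 encodes HRD1, the ubiquitin ligase of that complex. Its row (ENSMUST00000138532, chromosome 19, UTR start 6052658) had 64.2 and 17.5 CPM in WT IP batches 2 and 3 and 53.2 and 31.6 CPM in KO IP batches 2 and 3. It had 159.9 and 63.1 CPM in KO inputs D1 and RIP8, against 125, 91.4 and 34.5 CPM in WT input D1, RIP8 batch 1 and RIP8 batch 2. The Lars2-rich runs were all above the Lars2-poor runs, with a mean 2.94 times as high, but the lowest of them, KO input RIP8 (37.4 to 99.7 CPM), and the highest Lars2-poor run, KO IP batch 2 (46.1 to 61.0 CPM), had overlapping counting intervals. The RefSeq gene Mrpl49 overlaps the end of Syvn1, so its reads cannot be told apart either.

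**Figure D1:**
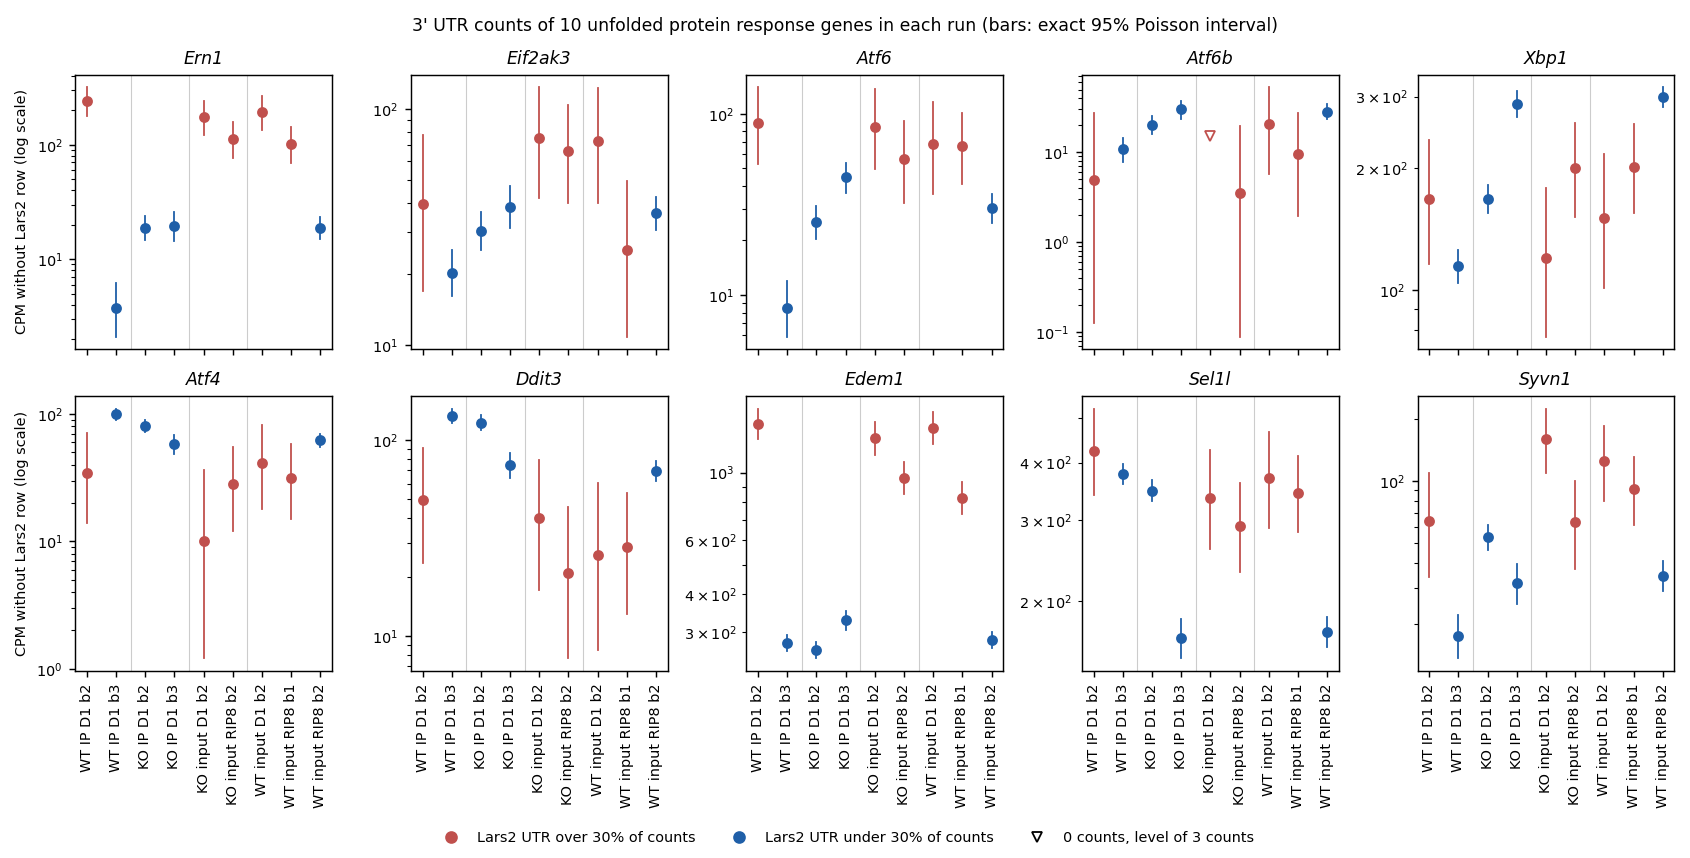
Level of each of the 10 genes in the 9 runs (CPM without the Lars2 row, log scale), with exact 95% Poisson intervals as bars, colour by the share of the Lars2 row, and an open triangle at the level of 3 counts for the run with 0 counts. Ern1, Atf6, Edem1 and Syvn1 are higher in every Lars2-rich run, Atf4 and Ddit3 are lower in every one, and the other 4 genes overlap.

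Syvn1 was also the member whose promoter held an ER stress response element (ERSE), the sequence through which ATF6 and XBP1 act on ER chaperone genes. The promoter sequences are those of RefSeq (GRCm38.p6), in which 9 of the 10 genes were matched, all but Atf6. The ERSE was searched on both strands as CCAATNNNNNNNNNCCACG and was found in 39 of 32851 promoter windows of the same length, or 0.119%. Of the 9 matched genes, Syvn1 held it, and of 84 matched genes of the 4 pathway lists described below, 8 did. The 30-base windows around it in Syvn1 and in the chaperone and folding genes Hspa5 (BiP), Pdia6 and Canx are shown to compare the element, with its fixed letters in capitals, read 5′ to 3′ on the strand of the gene.
Syvn1: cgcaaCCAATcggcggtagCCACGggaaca
Hspa5: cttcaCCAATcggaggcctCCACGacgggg
Pdia6: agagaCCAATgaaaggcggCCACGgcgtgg
Canx: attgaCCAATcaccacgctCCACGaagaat
These windows lie at chr19:6046527-6046556 (+ strand) for Syvn1, chr2:34772020-34772049 (+) for Hspa5, chr12:17266486-17266515 (+) for Pdia6 and chr11:50325794-50325823 (− strand) for Canx. The first base of the element is at position −44 from the annotated gene start in Syvn1, −65 in Hspa5, −98 in Pdia6 and −145 in Canx. The XBP1 element TGACGTGG (in 0.676% of promoters), the cAMP response element TGACGTCA (1.79%) and TTGCATCA (0.895%), a form of the element bound by ATF4 with C/EBP proteins, were searched on both strands too and were in none of the 9. The CCAAT box, which the ERSE contains, was in 7 of the 9 and in 37.4% of all promoters. A match is a description of the letters and no match says nothing about binding.

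Over the whole set, 4 of the 10 genes (Ern1, Atf6, Edem1 and Syvn1) were higher in every Lars2-rich run than in every Lars2-poor run, against 22.3% of the 11496 rows that passed the filter on low counts. In the other direction 2 of 10 (Atf4 and Ddit3) were lower in every Lars2-rich run, against 18.8% of all rows. The share of lower genes is close to that of all rows, and with 10 genes the share of higher ones is no result about the set. All 10 passed the filter, and their median log2 ratio of mean CPM (1 CPM added), Lars2-rich over Lars2-poor, was 0.61, against 0.14 for all rows. Syvn1 lost its separation when CPM was taken over TMM library sizes or when counts were thinned to the 192134 of the shallowest run, which left 3 higher genes, and Atf6 and Syvn1 lost theirs with the Lars2 row kept in the totals, which left 2. Atf4 and Ddit3 were lower in every Lars2-rich run under each of these settings. For them the setting with the Lars2 row kept could not give another outcome, since it lowers CPM more in the Lars2-rich runs. In the 2 libraries with a run of each kind, WT IP D1 and WT input RIP8, the Lars2-rich run was higher for Ern1 (64.3- and 5.35-fold), Atf6 (10.4- and 2.198-fold), Edem1 (5.23- and 2.93-fold) and Syvn1 (3.66- and 2.65-fold). In the same libraries it was lower for Atf4 (2.90- and 1.97-fold) and Ddit3 (2.70- and 2.46-fold). The contrast between the kinds of run was therefore present between runs that carry 1 library name.

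The ratio between the kinds of run went with the length of the UTR. For genes on the plus strand this length was taken as the span from the row's UTR start to the end of the RefSeq gene. It was 85 bases for Atf4, 200 for Ddit3, 377 for Atf6b, 953 for Eif2ak3, 1061 for Syvn1, 1089 for Xbp1 and 3800 for Edem1. The log2 ratios of these genes, in the same order, were −1.34, −1.57, −1.42, 0.81, 1.53, −0.37 and 2.04. The genes with the shortest spans were thus the low ones in the Lars2-rich runs, and the longest, Edem1, had the highest ratio. Across all 3985 plus-strand genes tested, Spearman's rho between span and ratio was 0.60, a description across genes, which are not independent replicates, and over the 7 genes named here it was 0.79. Medians by span class ran from −2.02 for the 115 genes of at most 100 bases to 1.30 for the 755 genes over 3200 bases. Of that longest class, 53.5% were higher in every Lars2-rich run, and of the class of at most 100 bases 7.83% were. In the classes of Atf4 and Ddit3, up to 100 and up to 200 bases, 56.5% of genes were lower in every Lars2-rich run. Syvn1 and Eif2ak3 lay above the upper quartile of their class (0.55), Edem1 lay at its upper quartile of 2.04, and Atf4, Ddit3, Atf6b and Xbp1 lay within the quartiles of theirs. The span is taken from the annotation and the UTR used in these cells may differ, which was not tested.

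**Figure D2:**
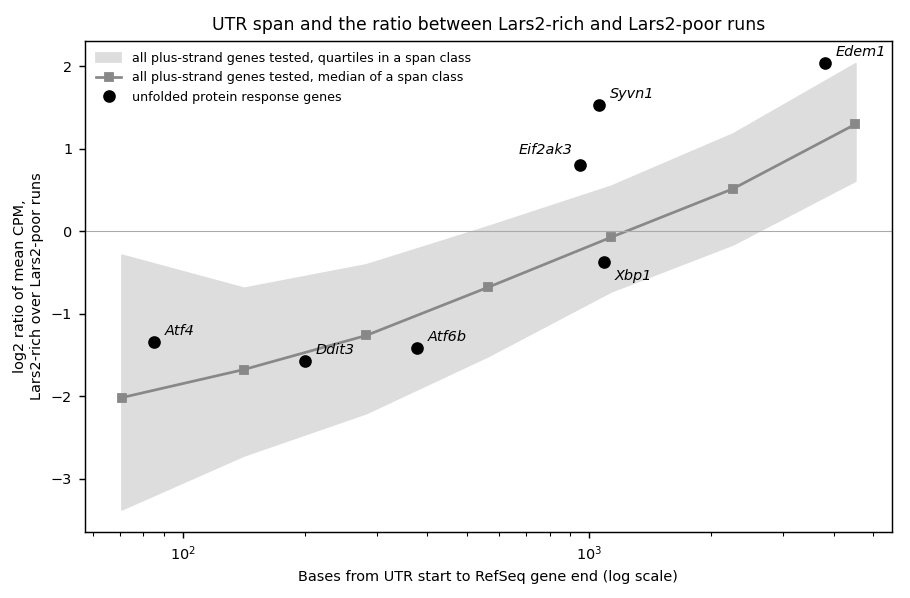
Log2 ratio of mean CPM, Lars2-rich over Lars2-poor runs (1 CPM added), against the span from UTR start to RefSeq gene end in bases (log scale), with the 7 plus-strand genes as black points and the medians and quartiles of all 3985 plus-strand genes by span class in grey. Atf4, Ddit3 and Atf6b, with short spans, are below −1.3 and Edem1, with the longest, is at 2.04.

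Levels of different genes can be compared only per length, which was to hand for the 7 plus-strand genes and not for Ern1, Atf6 and Sel1l. Per kilobase of span, the Lars2-rich runs averaged 343 CPM for Atf4, 312 for Edem1, 165 for Ddit3, 154 for Xbp1, 94.9 for Syvn1, 58.6 for Eif2ak3 and 20.5 for Atf6b. In the Lars2-poor runs the averages were 886 CPM per kilobase for Atf4, 500.1 for Ddit3, 199.8 for Xbp1, 75.7 for Edem1, 59.2 for Atf6b, 32.9 for Eif2ak3 and 32.2 for Syvn1. Atf4 was above the other genes in each Lars2-poor run, while in the Lars2-rich runs it was above Edem1 in 4 of 5 and below it in KO input D1 (118 CPM per kilobase for Atf4 and 341 for Edem1), so that their ranges overlapped. The spans of Atf4 and Ddit3 are only 85 and 200 bases, so their values per kilobase rest on division by a small length. Whether their ranks among the 7 genes hold with another measure of length was not tested. Edem1 was above Ddit3 and Xbp1 in each Lars2-rich run and below both in each Lars2-poor run. Eif2ak3 and Syvn1, last in the Lars2-poor runs, do not differ there beyond the spread of the runs (20.3 to 38.5 and 17.5 to 53.2 CPM before division by span).

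The comparison that the study turns on is IP in WT cells, where CPEB4 is present, against IP in KO cells, where it is not. None of the 10 genes passed an adjusted p of 0.05 in WT IP against KO IP, and 0% of the 11496 rows tested did, by edgeR's quasi-likelihood test with Benjamini-Hochberg adjustment on runs summed by library. At an unadjusted p under 0.05 there were 0 of the 10 genes and 33 of all rows, and DESeq2 and limma voom also called 0 of the 10. Sel1l had 380.1 CPM in the WT IP library and 277 CPM in the KO IP library, a log2 fold change of 0.78 ± 0.95 (SE). Atf4 (0.76 ± 0.95), Ddit3 (0.64 ± 0.96) and Edem1 (0.53 ± 1.12) also had positive values, and Ern1 was at 0.01 ± 1.13. For Ern1 the WT IP library joins unlike runs, and with the IP libraries by their batch 3 run it was at −1.79. Values were negative for Atf6 (−1.08 ± 0.99), Atf6b (−0.86 ± 1.18), Syvn1 (−0.85 ± 1.01), Xbp1 (−0.55 ± 0.97) and Eif2ak3 (−0.34 ± 0.95). The median was −0.17 over the 10 genes and −0.01 over all rows. Each IP group had 1 library, assumed to vary like the inputs, which leave 2 residual degrees of freedom, so changes of the size of these standard errors were not detectable. In the batch 2 runs alone, where WT IP is a Lars2-rich and KO IP a Lars2-poor run, the sign turned for Atf6 (1.55), Atf4 (−1.48), Ddit3 (−1.57), Eif2ak3 (0.11) and Syvn1 (0.01), and Ern1 was at 3.42 and Edem1 at 2.201, none of which passed the threshold.

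The interaction asks the same with the inputs taken into account, WT IP over WT input against KO IP over KO input. In this test 0 of the 10 genes and 0% of the 11496 rows passed the threshold (edgeR's quasi-likelihood test), with 1 of the 10 and 124 of all rows at an unadjusted p under 0.05. That gene was Atf6b, at −4.52 ± 1.89, which rests on 1 count in both KO inputs together. The other genes lay between −1.13 ± 1.198 (Xbp1) and 0.94 ± 1.16 (Sel1l). In the batch 2 runs alone, Ern1 was at 3.95, Edem1 at 2.62, Atf6 at 2.11, Ddit3 at −2.44 and Atf4 at −2.99, and 0 of the 9 genes tested passed. Without the WT input D1 library, 2 genes passed, Ern1 at 2.33 and Atf6b at −4.73 (adjusted p = 0.0477 and 0.0179, edgeR), as did 10.2% of the 11618 rows tested, but then every group except KO input has 1 library, and the spread comes from the KO inputs alone.

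Between KO input and WT input, 0 of the 10 genes and 0% of the 11496 rows passed the threshold (edgeR's quasi-likelihood test), with 1 of the 10 and 600 of all rows at an unadjusted p under 0.05. Atf6b had 0 and 1 counts in KO inputs D1 and RIP8, against 4 and 119 counts in WT inputs D1 and RIP8. Of these 119 counts, 116 were in the Lars2-poor run of WT input RIP8 and 3 in its Lars2-rich run, while both KO inputs are Lars2-rich. For Atf6b the ratio of CPM was 0.0770, with an exact counting interval of 0.00193 to 0.437. This interval covers counting error only, and genotype and kind of run cannot be told apart in it. The fitted log2 value of Atf6b was −3.66 ± 1.39 (edgeR adjusted p = 0.953). Atf4 had 10.0 and 28.0 CPM in KO inputs D1 and RIP8, against 41.6 and 59.96 CPM in WT inputs D1 and RIP8, a log2 fold change of −1.48 ± 0.81. The values of the libraries did not overlap, but the difference did not pass the threshold (edgeR adjusted p = 0.996). KO input RIP8 and WT input D1 had 8 Atf4 counts each, and their exact counting intervals overlapped (12.1 to 55.2 and 18.0 to 82.0 CPM). How many of all rows separate the input libraries in this way was not tested, so the separation is no result about Atf4. The Atf4 level of WT input RIP8 came mostly from its Lars2-poor run (62.2 CPM). Its Lars2-rich run had 31.5 CPM, near the 28.0 CPM of KO input RIP8. By the other run of each library with 2 runs, in which every input is Lars2-rich, the log2 fold change of Atf4 was −0.83. The other 8 genes lay between −0.86 ± 0.78 (Ddit3) and 0.51 ± 0.84 (Ern1). Without WT input D1, 4 genes passed: Ern1 at 2.33, Edem1 at 1.62, Atf4 at −1.74 and Atf6b at −3.86 (edgeR adjusted p = 0.00104 to 0.0351), as did 20.2% of the 11618 rows tested. The WT input is then 1 library, mostly its Lars2-poor run, which is assumed to vary like the KO inputs.

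IP against input compares RNA that was purified and amplified differently. For KO IP against KO input, the background of the precipitation, 0 of the 10 genes and 0% of the 11496 rows passed the threshold (edgeR's quasi-likelihood test). Here 4 of the 10 and 1723 of all rows had an unadjusted p under 0.05. Ern1 had 19.0 CPM in the KO IP library, against 175 and 112 CPM in KO inputs D1 and RIP8, a log2 fold change of −2.62 ± 1.12 (edgeR adjusted p = 0.305). Atf4 had 71.9 CPM in KO IP, against 10.0 and 28.0 CPM in these inputs (2.11 ± 0.89), and Ddit3 104 CPM in KO IP, against 40.0 and 21.0 CPM (2.08 ± 0.87). Atf6b had 151 counts in KO IP and 1 in the KO inputs, a ratio of 11.6 with a counting interval of 2.06 to 463 (fitted log2 value 3.79 ± 1.46). In this contrast both IP runs are Lars2-poor and both inputs Lars2-rich, so precipitation and kind of run cannot be told apart. Without WT input D1, 5 of the 10 genes passed (Ern1, Atf6b, Atf4, Ddit3 and Edem1), against 25.7% of the 11618 rows tested, and without WT input RIP8, 4 of 9 (Ern1, Atf4, Ddit3 and Edem1), against 35.2% of 7658 rows. In both fits the spread comes from the KO inputs alone.

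For WT IP against WT input, 0 of the 10 genes and 0% of the 11496 rows passed the threshold (edgeR's quasi-likelihood test), with 1 of the 10 and 878 of all rows at an unadjusted p under 0.05. Ddit3 had 129 CPM in the WT IP library, against 26.0 and 66.8 CPM in WT inputs D1 and RIP8, a log2 fold change of 1.85 ± 0.81 (edgeR adjusted p = 0.637). Ern1 had 15.3 CPM in WT IP, against 193 and 24.8 CPM in these inputs (−2.11 ± 1.10), and Sel1l had 380.1 CPM, against 369.5 and 183 CPM (1.04 ± 0.80). The Ern1 value of WT IP joins unlike runs, 49 counts of the Lars2-rich batch 2 (242 CPM) and 15 counts of the Lars2-poor batch 3 (3.76 CPM). The remaining 7 genes lay between −1.38 ± 0.92 (Atf6) and 1.39 ± 0.81 (Atf4). All of the 10 genes except Atf6b and Xbp1 had the same sign in this contrast and in KO IP against KO input. For neither Ern1 nor Ddit3 was the difference between the contrasts past the threshold (interaction 0.52 ± 1.41 and −0.23 ± 1.23). By the other run of each library with 2 runs, in which every IP run is Lars2-poor and every input Lars2-rich, 6 of the 9 genes tested passed (Ern1, Atf6, Atf4, Ddit3, Edem1 and Syvn1), against 47.6% of the 7933 rows tested. Without WT input RIP8, WT IP and WT input are 1 library each and the spread comes from the KO inputs alone. Passes of that fit are therefore not read here.

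**Figure D3:**
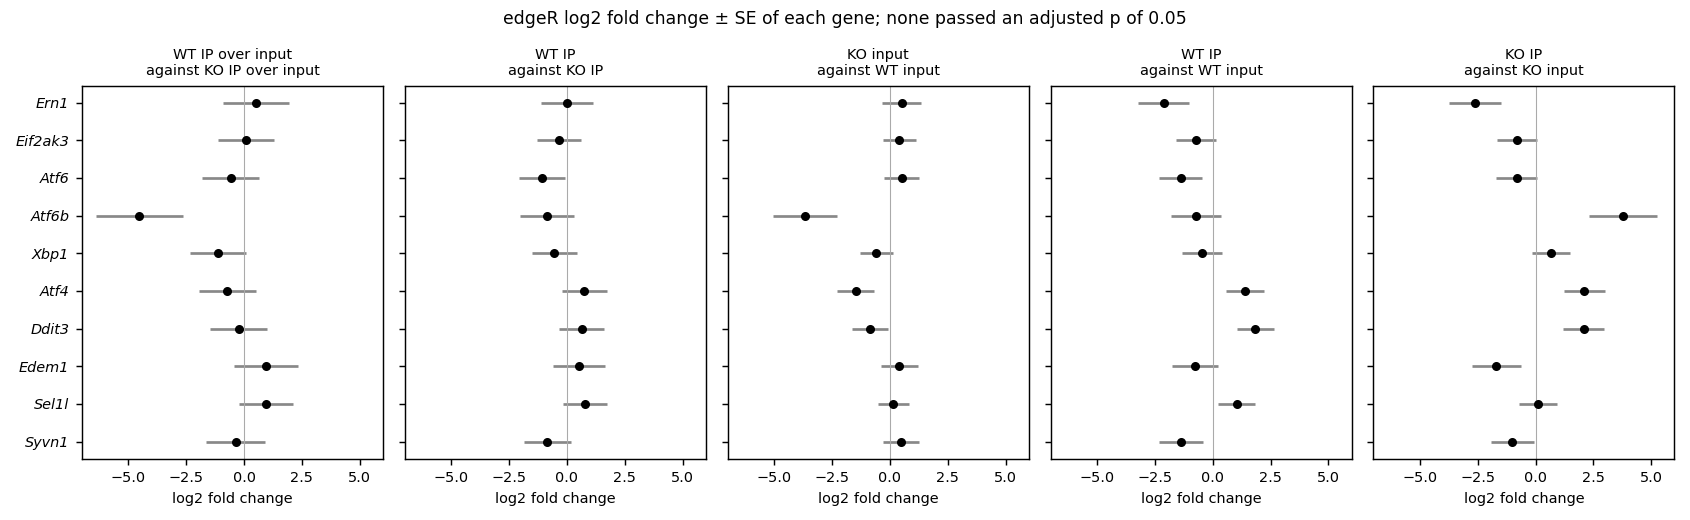
Log2 fold change of each gene in the 5 comparisons, as points with the standard error of the edgeR fit as bars. No gene passed an adjusted p of 0.05, and Atf6b, with 1 count in the KO inputs, has the widest values (−4.52, −3.66 and 3.79).

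The partners and targets of these genes were described by 4 lists of other genes. Of 30 genes of ER-associated degradation, 26 were tested, and 0 passed the threshold in any of the 5 comparisons (edgeR's quasi-likelihood test). The same held for 21 of 25 genes around IRE1 and the targets of XBP1, 24 of 30 genes of the PERK arm and the integrated stress response, and 12 of 17 genes of ATF6 processing, ATF6 targets and the CREB3 family. In WT IP against KO IP the median log2 fold changes were −0.03, 0.09, −0.18 and 0.10 for these lists in that order, against −0.01 for all rows, and no listed gene had an unadjusted p under 0.05. In KO IP against KO input they were 0.26, 1.00, 1.17 and 1.48, against 0.20 for all rows, with 3 of 26, 7 of 21, 5 of 24 and 7 of 12 genes at an unadjusted p under 0.05, against 15% of all rows. Both KO IP runs are Lars2-poor and both KO inputs Lars2-rich, so precipitation and kind of run cannot be told apart in these values. In the interaction the medians were −0.25, −0.85, −0.50 and −0.90, against −0.27 for all rows. In KO input against WT input they were −0.20, −0.64, −0.53 and −0.84, against −0.10 for all rows.

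Between the kinds of run, the lists held genes of both directions. For ER-associated degradation, 5 of 26 genes were higher in every Lars2-rich run and 6 lower, with a median log2 ratio of 0.14, the same as that of all rows. Vcp, the ATPase that pulls substrates out of the ER membrane, had 10.5 to 41.0 CPM in the Lars2-rich and 195 to 280.4 CPM in the Lars2-poor runs. Os9 and Ubqln1, also among the listed genes with most counts, overlapped. Around IRE1 and XBP1, 3 of 21 were higher and 7 lower (median −0.60), with Ssr1 and Spcs3, of the translocon and the signal peptidase, among the higher and the disulfide isomerase Pdia6 among the lower. In the PERK list, 4 of 24 were higher and 5 lower (median −0.59). Cebpg, a bZIP partner of ATF4, had 519.9 to 703 CPM in the Lars2-rich and 204 to 240.2 CPM in the Lars2-poor runs, while the tRNA synthetase genes Sars and Nars, which ATF4 activates, were lower in every Lars2-rich run. In the ATF6 list, 3 of 12 were higher and 6 lower (median −0.74). Hsp90b1 (GRP94) had 130.1 to 198 CPM in the Lars2-rich and 368 to 1632 CPM in the Lars2-poor runs, and the lectin chaperone Canx had 205 to 286 CPM in the Lars2-rich and 721 to 863 CPM in the Lars2-poor runs. Crebzf, a bZIP protein, had 645 to 1165 CPM in the Lars2-rich and 40.8 to 181 CPM in the Lars2-poor runs.

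**Figure D4:**
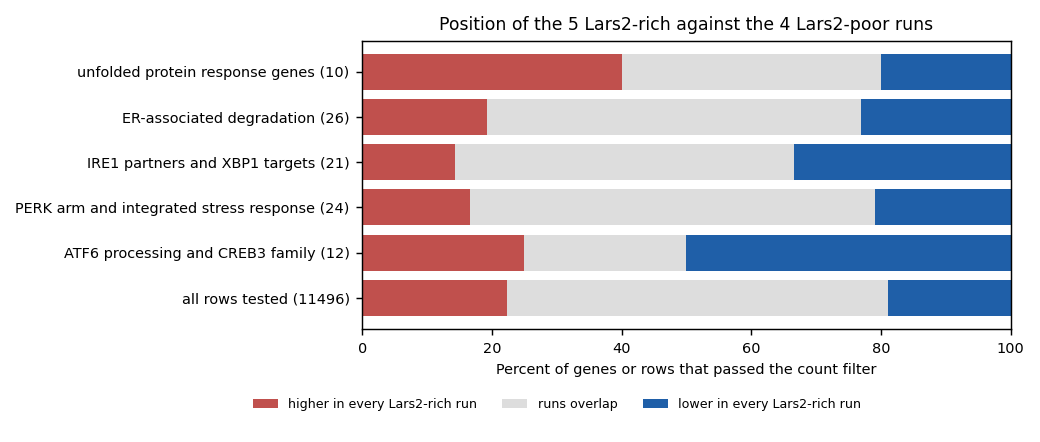
Share of genes, in percent of those that passed the count filter (number in brackets), that were higher in every Lars2-rich run, overlapped or were lower in every Lars2-rich run, for the 10 genes, the 4 pathway lists and all 11496 rows tested. Of the 10 genes 4 were higher and 2 lower, against 22.3% and 18.8% of all rows.

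The named genes most like Edem1, the best counted of the 10, were Nabp1, Bbs1, Atxn7l1, Itga4 and Gmfb. Their mean absolute difference from Edem1 over the 9 runs was 0.14 to 0.15 on the scale of log2(CPM + 1), each gene centred on its own mean. Since they were chosen for this likeness, their log2 ratios between the kinds of run, 1.79 to 2.21, are no separate observation. Of the other genes of the response, Syvn1 and Atf6 came nearest (0.49 each) and Atf6b was farthest (1.95).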

How the data were processed

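The deposited table held raw counts of reads per 3′ UTR row, made by the authors with 1 column per run, without pooling. Per the submitters' processing notes, featureCounts, the aligners Bowtie2 2.2.2 and Bowtie 1.2.3, R 3.5.1 and the build mm10 were used. The sources used here do not give the annotation, the strand setting or how multiply mapped reads were counted. Symbols were assigned by position and row order from the RefSeq gene table (GRCm38), where 3745 UTR starts equal a gene start, against 3 after a shift of 1000000 bases. Only the 9 runs whose rows match their names were used. The Lars2 row was dropped, and runs were summed by library, with 192134 to 6302575 counts per library. edgeR 4.0.16 in R 4.3.3 fitted 4 group means with TMM factors and filterByExpr at a minimum count of 10. Benjamini-Hochberg adjustment ran over 11496 rows, and the fit was tested on simulated data. Each SE was derived from the log2 fold change and its F statistic, so it restates the test. Intervals are exact 95% Poisson intervals and, like the limit of 3 counts, cover counting error only. Alternatives were DESeq2 1.42.0, limma 3.58.1 voom, other scaling, filters, runs and a replicate block. The 10 genes, all of which are named, the lists, of which the 4 genes with most counts are named except for 1 that is not reported here, and the likeness rule were chosen with earlier results of these data known.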

Additional observations from a re-analysis of the deposited data

How the results depend on the processing

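Over the 5 comparisons, 587 of 685 values (50 log2 fold changes under each alternative, or 45 where Atf6b was not tested) kept their sign and their side of the threshold, 47 changed sign and 32 passed the threshold under an alternative. The other 19 kept their sign but had no adjusted p from DESeq2. Sign changes are log2 values that did not pass the threshold, and their cause was not tested. With the Lars2 row kept in the totals, 2 genes rather than 4 were higher in every Lars2-rich run. Without TMM factors, Eif2ak3 was at −0.20 in the interaction, Ern1 at −0.32 in WT IP against KO IP and Sel1l at −0.18 in KO IP against KO input.

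In the batch 2 runs alone, Atf6 (2.11) and Syvn1 (0.54) changed sign in the interaction. In WT IP against KO IP it was Eif2ak3 (0.11), Atf6 (1.55), Atf4 (−1.48), Ddit3 (−1.57) and Syvn1 (0.012), and in WT IP against WT input Ern1 (1.28), Atf6 (0.89), Atf4 (−0.71), Ddit3 (−0.15) and Edem1 (0.77). With the other run of each library, 6 of 9 genes passed in WT IP against WT input and 2 of 9 in KO IP against KO input, with 47.6% and 22.3% of 7933 rows, and 0 in WT IP against KO IP, with 6.77%. There, sign changed for Ern1 (−1.84), Atf4 (0.50) and Ddit3 (1.47) in the interaction, Ern1 (−1.82) in WT IP against KO IP, and Ern1 (−0.022), Ddit3 (0.093) and Sel1l (−0.20) in KO input against WT input. It also changed for Xbp1 (0.032) in WT IP against WT input and Sel1l (−0.77) in KO IP against KO input. With the IP libraries by their batch 3 run, it changed for Ern1 (−1.30), Ddit3 (0.54) and Syvn1 (0.19) in the interaction, Ern1 (−1.79) in WT IP against KO IP and Sel1l (−0.70) in KO IP against KO input.

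Leaving out 1 input library at a time gave 0 to 2 genes past the threshold in the interaction, 0 to 4 in KO input against WT input, 0 to 5 in WT IP against WT input and 0 to 5 in KO IP against KO input, with up to 1186, 2343, 2639 and 2984 of all rows. Log2 values that changed sign ran, in the interaction, from −0.42 to 2.33 for Ern1, from −0.37 to 0.47 for Eif2ak3, from −0.73 to 0.83 for Ddit3 and from −1.12 to 0.44 for Syvn1. In KO input against WT input they ran from −0.42 to 2.33 for Ern1, −0.022 to 0.81 for Eif2ak3, −1.07 to 0.13 for Xbp1, −1.37 to 0.20 for Ddit3, −0.29 to 1.62 for Edem1, −0.22 to 0.58 for Sel1l and −0.27 to 1.29 for Syvn1. In WT IP against WT input they ran from −0.91 to 0.17 for Xbp1 and −1.54 to 0.46 for Edem1. The IP groups had 1 library each, so none could be left out.

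The replicate names D1 and RIP8 are shared by the inputs, but the labels do not say that they mark shared animals or days. Deviations from the group means correlated at 0.20 over 11496 rows between inputs of the same name, a hint from the data only. With the names as a replicate block, 4 genes passed in KO IP against KO input: Ern1 (−3.50), Atf6b (4.32), Atf4 (2.78) and Ddit3 (2.34), with 1977 of all rows. In the other comparisons 0 of the 10 passed, with 536 of all rows in WT IP against WT input and 2 in KO input against WT input. The block also turned the sign of Xbp1 in WT IP against WT input (0.20) and of Sel1l in KO IP against KO input (−0.12). DESeq2 called 188 and an edgeR fit without a filter 594 of all rows in KO IP against KO input, 0 of them among the 10 genes, of which 4 had no adjusted p from DESeq2. The 2 to 10 counts behind Atf4 and Ddit3 in each Lars2-rich run limit what these runs can show.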
